A study of Danio rerio with 6 samples.

Results

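Selenoprotein P and the glutathione peroxidases were followed through 9 genes, sepp1a, sepp1b, gpx1a, gpx1b, gpx3, gpx4a, gpx4b, gpx7 and gpx8, out of 19071 genes with an expression value. The genes were taken by their names, and each name belonged to 1 gene ID. sepp1b was chosen by its lower FPKM in mutants in these same libraries, so its difference between the groups is described and not tested. The mutants were p2ry11 -/- larvae carrying a small frameshift deletion that was made with CRISPR/Cas9 and kept in the line of 1 founder. The controls were labeled as WT siblings. The mutation was present in all cells, and each library was made from pooled whole larvae at 3 days post fertilization (dpf), with 3 libraries per group. Expression was given as FPKM, a unit that corrects for gene length and for library size, so levels can be compared between genes.

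The libraries were described first, because this affects every comparison. p2ry11 had FPKM of 0.707, 0.853 and 1.02 in the WT siblings and was listed at 0 in the 3 mutant libraries. All 15 tissue markers had a value above 0 in every library, as a whole larva should. They cover neurons, muscle, skin, cartilage, lens, heart, vessels, exocrine pancreas and liver. WT sibling replicate 3 stood apart, with the lowest median FPKM (4.15, against 4.84 to 5.71 in the other libraries) and the most genes listed at 0 (180, against 48 to 102). The median log2 difference of the 18432 tested genes, those with a mean FPKM of at least 0.5, was 0.16 toward mutants. With rescaling to TPM it was 0.28, and 0.012 and 0.0072 after median-of-ratios scaling and quantile normalization. For the 9 genes and the lists, differences are therefore also given relative to this median. FPKM do not keep the number of reads, so the depth behind each value is unknown.

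Selenium enters proteins as selenocysteine, an amino acid that is read at a UGA codon with the help of a special tRNA, a binding protein of the messenger RNA and an elongation factor. Selenoprotein P is the secreted carrier that in mammals takes selenium from the liver to other organs, where it is taken up by receptors of the LDL receptor family. Glutathione peroxidases reduce hydrogen peroxide and lipid peroxides with glutathione. In mammals GPX1, GPX3 and GPX4 use selenocysteine in the active site, while GPX7 and GPX8 use cysteine and lie in the endoplasmic reticulum. Zebrafish keep a pair of genes each for selenoprotein P, GPX1 and GPX4.

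The selenoprotein P genes were expressed at very different levels. sepp1a (ENSDARG00000093549), which encodes the form with a selenocysteine-rich tail, was the most abundant of the 9 genes. In WT sibling replicates 1, 2 and 3 its FPKM were 512, 551 and 621, above 99.2% of the tested genes on the mean. In mutant replicates 1, 2 and 3 it had FPKM of 472, 456 and 495. All mutant libraries lay below all WT sibling libraries, but the gap between the closest libraries was small beside the spread of the WT siblings. The mean went from 561 ± 55.3 to 474 ± 19.2 FPKM (SD, n = 3 libraries each), a log2 difference of -0.24 (SE 0.105, 95% interval -0.49 to 0.0094), or -0.40 relative to all genes. This did not pass the test across all genes (adjusted p = 0.153 from limma), and the value turned to 0.022 after quantile normalization.

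sepp1b (ENSDARG00000079727) encodes the short form that lacks this tail. It had FPKM of 23.8, 23.1 and 29.3 in the WT siblings. In the mutants the FPKM were 4.78, 3.77 and 4.43. The lowest WT sibling library was thus far above the highest mutant library, and the mutant libraries differed little among themselves. The WT sibling mean of 25.4 ± 3.39 FPKM compared with a mutant mean of 4.33 ± 0.512 (SD, n = 3 each), which is 17.0% of the WT sibling level. On the log2(FPKM + 1) scale the difference was -2.31, or -2.47 relative to all genes. sepp1b lay at percentile 86.7 of the tested genes in WT siblings, so it was not a gene near the limit of detection. These values chose the gene and carry no test.

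Because sepp1a differed little, the ratio of the pair moved with sepp1b. The FPKM of sepp1a were 21.5, 23.8 and 21.2 times those of sepp1b in the WT siblings, and 98.9, 121 and 112 times in the mutants. The share of sepp1b in the FPKM of both genes was 4.33% ± 0.260 in the WT group (SD, n = 3) and 0.903% ± 0.0921 in the mutant group. The summed FPKM of both genes was 587 ± 58.4 in WT siblings and 479 ± 19.5 in mutants, most of it from sepp1a. This ratio contains the value that chose sepp1b and is given as a description only.

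**Figure D1:**
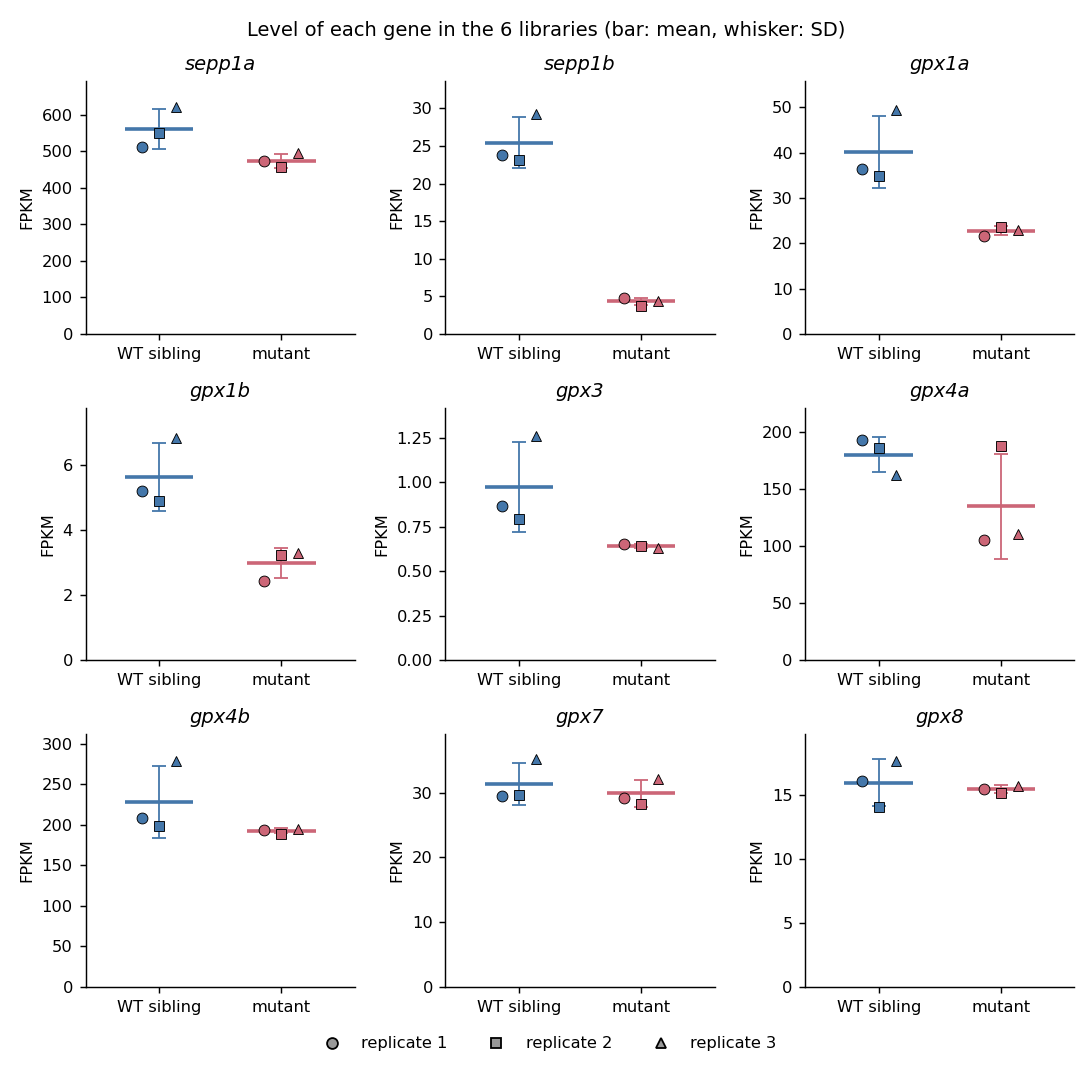
FPKM of each of the 9 genes (vertical axes, each starting at 0) in WT sibling (blue) and P2RY11 mutant (red) libraries. Symbols are the 3 replicates, thick bars are group means and whiskers are SD. The mutant libraries of sepp1b lie between 3.77 and 4.78 FPKM, below the WT siblings, and gpx4a in mutant replicate 2 lies among the WT siblings.

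Among the other 8 genes, the GPX1 pair fell in P2RY11 mutants and no gene rose. At an adjusted p under 0.05 from limma, 2 of 8 were called lower and 0 higher, while 3.98% of all tested genes were called lower and 8.23% higher. The looser criteria of the study (fold over 1.5, p under 0.05 before adjustment) were applied to p from limma. By them 2 of 8 were lower, against 4.73% of all tested genes. Without adjustment 2 of 8 had a p under 0.05, a smaller share than the 35.2% of all tested genes. In 5 of the 8 the mutant libraries all lay below the WT sibling libraries, against 11.7% of all tested genes, and in 0 of 8 they all lay above, against 35.0%. The log2 difference was negative in 8 of 8, as it was in 31.1% of all tested genes. The median of the 8 genes was -0.25, or -0.41 relative to all genes.

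gpx1a (ENSDARG00000018146) and gpx1b (ENSDARG00000006207) encode the cytosolic enzymes that remove hydrogen peroxide. gpx1a had FPKM of 36.4, 34.8 and 49.4 in the WT siblings, and 21.7, 23.7 and 23.0 in the mutants. The groups did not overlap, and WT sibling replicate 3 was the highest library. gpx1a fell from 40.2 ± 8.0 to 22.8 ± 1.03 FPKM (SD, n = 3 each), with a log2 difference of -0.78 (SE 0.138, 95% interval -1.10 to -0.45, adjusted p = 0.020 from limma), or -0.94 relative to all genes. gpx1b was several times less abundant, with FPKM of 5.20, 4.91 and 6.85 in the WT siblings and 2.45, 3.23 and 3.31 in the mutants. Again the groups did not overlap and WT sibling replicate 3 was highest. gpx1b fell from 5.65 ± 1.05 to 3.00 ± 0.473 FPKM (SD, n = 3 each), with a log2 difference of -0.73 (SE 0.159, 95% interval -1.10 to -0.36, adjusted p = 0.0327 from limma), or -0.89 relative to all genes.

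The paralogs fell to 56.7% and 53.0% of their WT sibling level. The FPKM ratio of gpx1a to gpx1b was 6.99, 7.08 and 7.20 in the WT siblings and 8.82, 7.33 and 6.95 in the mutants. Taken as a difference of log2(FPKM + 1) values, the ratio differed between the groups by -0.045. An exact permutation test in both directions did not separate this from 0 (p = 0.6, 3 libraries against 3, smallest possible p = 0.1). The added 1 weighs most on the low FPKM of gpx1b, and with 0.1 added in its place the value was 0.091. Without WT sibling replicate 3 the adjusted p from limma was 0.00124 for gpx1a (log2 difference -0.62) and 0.0110 for gpx1b (-0.61). Both calls were lost when WT sibling replicate 1 or any 1 of the mutant libraries was left out, with adjusted p from limma of 0.0544 to 0.0940 for gpx1a and 0.0827 to 0.120 for gpx1b, and log2 differences of -0.74 to -0.84 and -0.63 to -0.79.

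gpx4a (ENSDARG00000068478) and gpx4b (ENSDARG00000076836) encode the enzymes that reduce lipid peroxides in membranes, the activity that in mammals protects cells from ferroptosis. They were the most abundant glutathione peroxidases. gpx4a had FPKM of 193, 186 and 163 in the WT siblings and 106, 188 and 111 in the mutants. Mutant replicate 2 was as high as the WT siblings, while mutant replicates 1 and 3 lay well below all of them. The means were 181 ± 15.7 FPKM for the WT group and 135 ± 45.9 FPKM for the mutants (SD, n = 3 each), a log2 difference of -0.46 (SE 0.215, 95% interval -0.97 to 0.044, adjusted p = 0.169 from limma), or -0.63 relative to all genes. Leaving out mutant replicate 2 moved this to -0.72 (adjusted p = 0.0514 from limma), still above the threshold.

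gpx4b had FPKM of 208, 198 and 279 in the WT siblings and 194, 189 and 195 in the mutants. The mutant libraries were alike and lay just below the lowest WT sibling, and WT sibling replicate 3 was far above the rest. The log2 difference was -0.23 (SE 0.136, 95% interval -0.55 to 0.091, adjusted p = 0.260 from limma), -0.39 relative to all genes, -0.076 without WT sibling replicate 3 and 0.025 after quantile normalization. The FPKM ratio of gpx4a to gpx4b split the libraries across the groups. It was 0.928, 0.938 and 0.995 in WT sibling replicates 1 and 2 and mutant replicate 2, but 0.584, 0.547 and 0.572 in WT sibling replicate 3 and mutant replicates 1 and 3. Taken as a difference of log2(FPKM + 1) values, the ratio differed between the groups by -0.23 (exact permutation test in both directions, p = 0.7, 3 libraries against 3). These 2 paralog ratios were the only ones tested, and p adjusted over both was 0.7 for each by the exact permutation test.

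**Figure D2:**
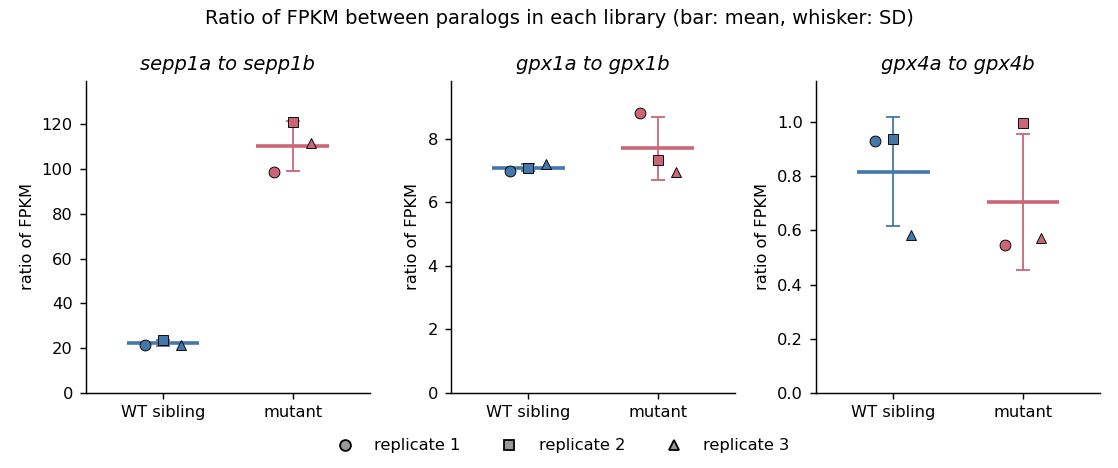
Ratio of FPKM between paralogs in each library (vertical axes, each starting at 0), in WT siblings (blue) and P2RY11 mutants (red). Symbols are replicates, thick bars are means and whiskers are SD. The ratio of sepp1a to sepp1b lies between 21.2 and 23.8 in WT siblings and between 98.9 and 121 in mutants, while the ratio of gpx4a to gpx4b takes high and low values in both groups.

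gpx3 (ENSDARG00000043342), the secreted plasma enzyme, was close to the filter on low values. Its FPKM were 0.864, 0.793 and 1.26 in the WT siblings and 0.651, 0.642 and 0.631 in the mutants. The groups did not overlap, and the mutant libraries were nearly equal. The log2 difference was -0.26 (SE 0.126, 95% interval -0.55 to 0.039, adjusted p = 0.186 from limma), or -0.42 relative to all genes, on a scale that understates changes at such low levels. In FPKM the mutant mean was 66.0% of the WT sibling mean. The study had listed a primer pair under this gene name, which is shown as listed. Whether the primers match this transcript was not checked, and PCR values were not analysed here.
gpx3 forward primer: aaccataaacgggacgcagt
gpx3 reverse primer: caaggaaagccgaggatggt

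The enzymes of the endoplasmic reticulum showed overlapping groups. gpx7 (ENSDARG00000091511), which helps to form disulfide bonds from peroxide, had FPKM of 29.4, 29.6 and 35.1 in the WT siblings and 29.1, 28.3 and 32.1 in the mutants. gpx8 (ENSDARG00000013302), its membrane-bound relative, had FPKM of 16.1, 14.1 and 17.7 in the WT siblings and 15.5, 15.2 and 15.7 in the mutants. The log2 differences were -0.066 for gpx7 (95% interval -0.30 to 0.17) and -0.036 for gpx8 (95% interval -0.28 to 0.21), with adjusted p = 0.656 and 0.820 from limma. Relative to all genes they were -0.23 and -0.20. The sign of both turned to positive after rescaling to TPM and without WT sibling replicate 3. A further gene, si:ch73-111m19.2, which the gene ID table calls gpx9, was looked at after its values were seen. It had FPKM of 7.21, 7.02 and 8.23 in the WT siblings and 7.43, 6.20 and 7.66 in the mutants, and its groups overlapped too.

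**Figure D3:**
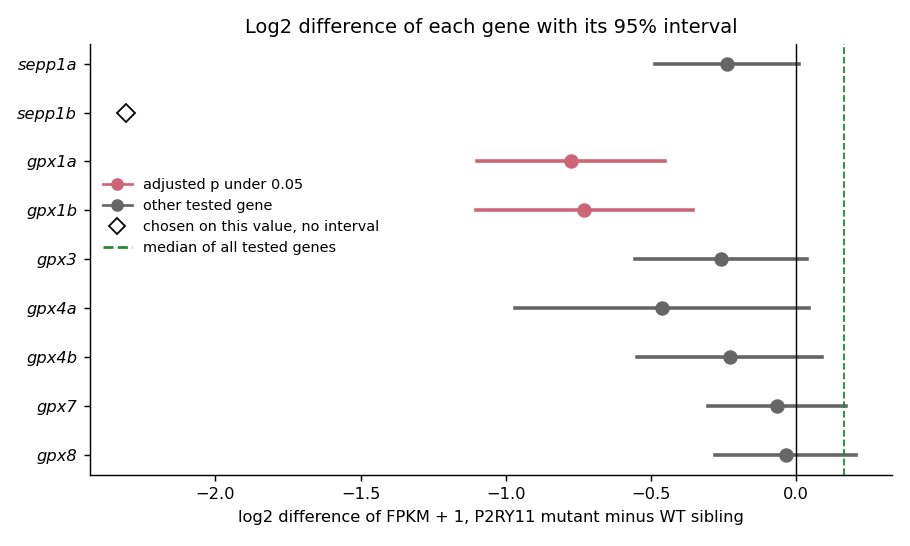
Log2 difference of FPKM + 1, P2RY11 mutant minus WT sibling (horizontal axis), for each of the 9 genes. Dots are estimates and bars 95% intervals from limma, red where the adjusted p is under 0.05. The open diamond is sepp1b, shown without interval at -2.31, and the dashed line is the median of all tested genes at 0.16. The intervals of gpx1a and gpx1b end at -0.45 and -0.36, and the other 6 intervals include 0.

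In WT siblings the genes ranked by mean FPKM as sepp1a (561), gpx4b (228), gpx4a (181), gpx1a (40.2), gpx7 (31.4), sepp1b (25.4), gpx8 (16.0), gpx1b (5.65) and gpx3 (0.972). Of these neighbors only gpx1a and gpx7 overlapped between their WT sibling libraries. In mutants the order was sepp1a (474), gpx4b (192), gpx4a (135), gpx7 (29.9), gpx1a (22.8), gpx8 (15.5), sepp1b (4.33), gpx1b (3.00) and gpx3 (0.641). gpx7 stood above gpx1a in every mutant library, and sepp1b moved below gpx8. The 7 glutathione peroxidase genes summed to 503 ± 43.7 FPKM for the WT group and 399 ± 42.7 FPKM for the mutants (SD, n = 3). gpx4a and gpx4b together made up most of this sum in each library, and the share of gpx1a was 7.94% ± 0.871 in WT siblings and 5.73% ± 0.394 in mutants.

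The libraries also differed within the WT siblings. In 8 of 9 genes replicate 3 was the highest WT sibling, at up to 1.52 times the mean of the other WT siblings for gpx3, while gpx4a had its lowest WT sibling value there, at 0.860 times. Without this replicate the median of the 8 genes other than sepp1b was -0.16, or -0.28 relative to all genes. The log2 difference of sepp1b was then -2.20, and gpx1a and gpx1b were still called. Gene span, introns included, differed as well. Tested genes were ordered by RefSeq span into 4 groups of 3975 or 3976, though not all tested genes could be placed. sepp1a, sepp1b, gpx1a, gpx1b, gpx4a and gpx8 lay in the group of shortest span. In that group 7.37% of genes were called lower and the median log2 difference was 0.0070, against 1.01% and 0.28 in the group with the longest. The next group, which held gpx3, gpx4b and gpx7, had a median of 0.10. The medians of the groups that held the 9 genes thus lay below the 0.16 of all tested genes. A fall given relative to all genes is therefore larger than relative to genes of like span. The part of WT sibling replicate 3 and of span in these differences was not tested beyond these values.

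Other selenoprotein genes were then examined from a list of 29, of which 23 were present and tested. Of these, 5 fell and 0 rose at an adjusted p under 0.05 from limma, against 3.98% and 8.23% of all tested genes. An unadjusted p under 0.05 was found for 12 of 23, against 35.2%. The thioredoxin-like gene selt1a of the endoplasmic reticulum had FPKM of 38.3, 37.5 and 49.0 in the WT siblings and 25.7, 23.5 and 25.6 in the mutants, a log2 difference of -0.71 (SE 0.119, adjusted p = 0.0171 from limma). sep15, whose product binds the folding sensor of glycoproteins, went from 104, 101 and 140 FPKM to 71.7, 67.3 and 71.2 (log2 difference -0.69). In both genes all mutant libraries lay below all WT siblings.

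The remaining calls were smaller proteins or less abundant genes. sepw1, which encodes a small redox protein of the cytosol, fell by 0.59 on the log2 scale, seph, a nuclear selenoprotein, by 0.70 and selk, a membrane protein of the endoplasmic reticulum, by 0.38 (adjusted p = 0.0188, 0.0407 and 0.0372 from limma). selk did not pass the test after rescaling to TPM. The largest positive value was that of SELENOI, an enzyme of phospholipid synthesis, at 0.98, which did not pass (adjusted p = 0.0715 from limma). The list median was -0.020, or -0.18 relative to all genes, and was 0.085 in TPM, or -0.20 against the median of all genes in that unit. Not all 23 genes could be placed by span. Of those placed, 11 were in the group of shortest span, with 3 of the 5 calls, and 9 in the next, with 2.

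Genes that make and insert selenocysteine or take up selenoprotein P were examined in the same way. Of 17 listed genes 14 were tested, and 2 rose and 0 fell, against 8.23% and 3.98% of all tested genes. An unadjusted p under 0.05 was found for 4 of 14, a smaller share than the 35.2% of all tested genes. In 7 of 14 the mutant libraries all lay above the WT sibling libraries, against 35.0% of all tested genes. In 0 of 14 they all lay below, against 11.7%. trnau1apb, whose product binds the selenocysteine tRNA, had FPKM of 18.4, 20.5 and 19.8 in the WT siblings and 31.9, 27.1 and 26.6 in the mutants, a rise of 0.52 (SE 0.0994, adjusted p = 0.0232 from limma). scly, the lyase that frees selenium from selenocysteine for reuse, had FPKM of 0.788, 0.845 and 0.324 in the WT siblings and 1.66, 1.61 and 1.54 in the mutants, a rise of 0.67 (adjusted p = 0.0374 from limma). The groups did not overlap in these genes. trnau1apb did not pass after median-of-ratios scaling, nor scly with a pseudocount of 0.1. The list median was 0.27, or 0.11 relative to all genes.

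Other peroxide and glutathione enzymes were examined next. Of 36 listed genes 34 were tested, and 5 fell and 3 rose, against 3.98% and 8.23% of all tested genes. The share that rose was near that of all genes, but it counts ggt1b, which passed the filter only through the mutants. So did sod3b among the 34 (means of 0.469 FPKM in WT siblings and 0.786 in mutants), which was not called. Some of the genes that fell encode peroxiredoxins, most of which reduce peroxides with thioredoxin. prdx5 fell by 0.82, prdx3, the mitochondrial enzyme, by 0.78 and prdx1 by 0.67 (adjusted p = 0.0169, 0.0345 and 0.0222 from limma). The mitochondrial thioredoxin gene txn2 and prdx2, added here because the count was small, fell by 0.65 and 0.54, and prdx2 kept its call in 2 of 8 changes of processing. prdx4 (-0.36, adjusted p = 0.108 from limma) and prdx6 (0.083, adjusted p = 0.713) did not pass. The quinone reductase gene nqo1 rose by 0.58, the transcription factor gene nfe2l2b by 0.63 and ggt1b, which cleaves extracellular glutathione, by 0.58 (adjusted p = 0.0258, 0.0235 and 0.0367 from limma). nfe2l2b was low, with a mean of 0.667 FPKM in WT siblings and 1.56 in mutants. Its more abundant paralog nfe2l2a, added here, had means of 15.7 and 12.2 FPKM. The log2 difference of nfe2l2a was -0.34, which did not pass (adjusted p = 0.0725 from limma). ggt1b was near the floor, with a mean of 0.229 FPKM in WT siblings and 0.851 in mutants. It passed the filter on low values only through the mutants, so its call is not read as a result. nqo1 did not pass after median-of-ratios scaling, nor nfe2l2b and ggt1b after quantile normalization. The list median was 0.0066, or -0.16 relative to all genes, and was -0.17 after median-of-ratios scaling.

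**Figure D4:**
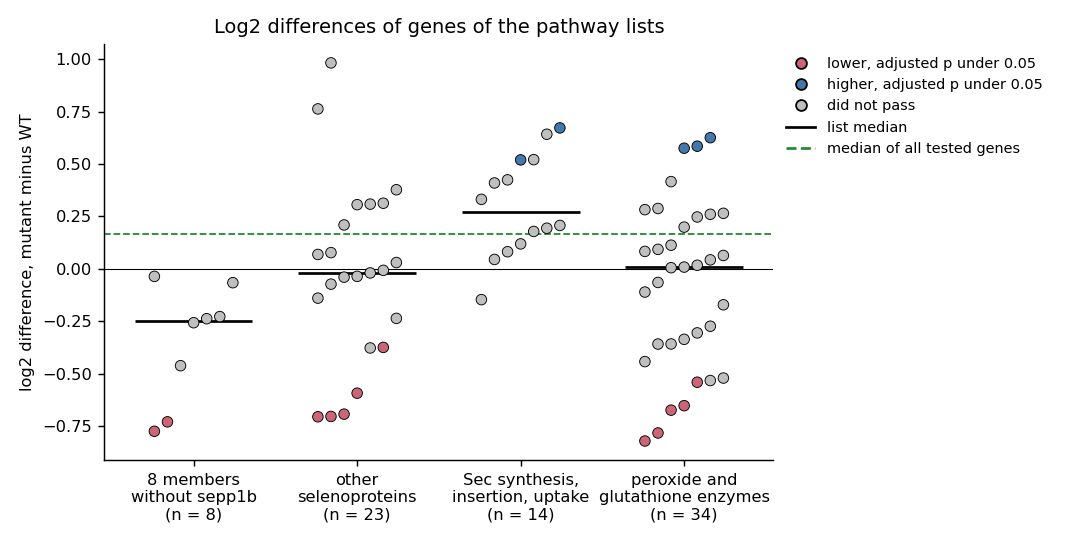
Log2 difference of each tested gene, P2RY11 mutant minus WT sibling (vertical axis), for the 8 genes other than sepp1b and for the lists of other selenoproteins (n = 23), selenocysteine (Sec) synthesis, insertion and uptake (n = 14) and other peroxide and glutathione enzymes (n = 34). Red and blue points are lower and higher at an adjusted p under 0.05 from limma, black lines are list medians and the dashed line is the median of all tested genes. Points of the 8 genes are all below 0, and the red points number 2, 5, 0 and 5 from left to right. The blue points of the last list include ggt1b, which passed the filter on low values only through the mutants.

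Calls in these lists also depended on single libraries. Without mutant replicate 1, 2 or 3 none of the 3 lists had a call in either direction. Without WT sibling replicate 1 the peroxide and glutathione enzymes had 1 call and the other lists 0. Without WT sibling replicate 3 the numbers that rose and fell were 3 and 5 for the other selenoproteins, 4 and 0 for the selenocysteine genes and 5 and 9 for the peroxide and glutathione enzymes. Over all tested genes, leaving out 1 mutant library reduced the calls to 185 to 265, from 2250.

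Markers of cell types that could hold these transcripts were measured beside them, and their counts are to be read against the 3.98% of all tested genes that fell and the 8.23% that rose. In bulk RNA fewer cells of a type and less RNA per cell cannot be told apart. Of 10 red blood cell markers 6 fell and 0 rose, from hbbe1.1 at -3.44 to gata1a at 0.13, which did not pass. Their summed FPKM was 4044 to 5586 in WT siblings and 1739 to 1881 in mutants. Of 13 leukocyte markers 3 fell and 0 rose, from lyz at -0.89 to mfap4 at 0.49, which did not pass, with a summed FPKM of 156 to 202 and 99.7 to 123. Such sums follow the most abundant markers of a list. Most of this sum came from lyz, with a mean of 124 FPKM in WT siblings and 66.3 in mutants. The log2 difference was below 0 in 7 of the 13 markers, against 31.1% of all tested genes. With the replicate block 1 leukocyte marker was called lower, and 0 without WT sibling replicate 1 or any 1 of the mutant libraries.

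Markers of organs that make or handle selenoprotein P gave mixed values. Of 9 liver markers 2 rose and 1 fell, from hp at -0.73, which did not pass, to cp at 2.58, and their summed FPKM was 2667 to 3365 in WT siblings and 2180 to 2472 in mutants. Of 7 markers of the yolk syncytial layer 1 rose and 1 fell, apobb.1 by 0.37 and apoa1b by 0.66, with sums of 6043 to 6979 and 4162 to 4973. Most of these sums came from apoa1a, added here, and apoa1b. Their means were 3433 and 2158 FPKM in WT siblings and 2322 and 1367 in mutants. The log2 difference was below 0 in 2 of the 7 markers. Of 11 markers of the pronephric tubule 1 rose and 0 fell, near the share of all genes, from trpm7 at -0.14 to slc12a1 at 0.50, neither of which passed, with sums of 56.5 to 71.1 and 69.4 to 74.7. slc12a1 was near the floor, with means of 0.315 FPKM in WT siblings and 0.842 in mutants, and passed the filter only through the mutants. The same held for cubn, with means of 0.336 and 0.731 FPKM, which did not pass the test. Of the 15 markers of the whole larva 2 rose and 1 fell, from the trypsin gene try at -1.19 to the neuronal gene elavl3 at 0.56, with sums of 11651 to 13466 and 9872 to 11482. No marker of these lists was listed at 0 in a library. Whether cell numbers of any type take part in the values of sepp1b, gpx1a or gpx1b was not tested.

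The positions of the genes were looked at as well. None of the 9 genes lies on the chromosome of p2ry11 in the RefSeq table. Neighbors of sepp1b were taken from protein-coding genes that could be matched by name, so other tested genes may lie between them. Of the 10 nearest such tested genes, 5 on each side, 0 were called by limma. Of all tested genes 8.23% were called higher and 3.98% lower. An unadjusted p under 0.05 was found for 4 of the 10, near the 35.2% of all tested genes. dsela, among the 4, had means of 0.416 FPKM in WT siblings and 0.916 in mutants. elovl8a, not among them, had 0.355 and 0.664. Both passed the filter on low values only through the mutants. In so few genes these counts do not set the neighbors apart. The log2 differences of the 10 ranged from -0.30 to 0.65. The 5 named genes whose profile over the 6 libraries was closest to that of sepp1b were si:ch211-214b16.2, ggact.2, pm20d1.1, zgc:195170 and si:ch211-121a2.2, with root mean square distances of 0.141 to 0.239 on the log2 scale, where the median named gene was at 1.26. Closeness is a description here, since the large step between the groups sets it. The distances were taken on log2(FPKM + 1), where the added 1 limits how far a gene listed at 0 in mutants can fall. pm20d1.1 had FPKM of 4.92, 4.11 and 5.44 in the WT siblings and 0.443, 0.575 and 0.464 in the mutants. si:ch211-214b16.2, ggact.2 and zgc:195170 were listed at 0 in all 3 mutant libraries, in contrast to sepp1b, which kept FPKM of 3.77 or more.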

How the data were processed

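Total RNA of pooled larvae was sequenced on an Illumina instrument. The processing notes of the submitters name StringTie 1.3.3, HISAT2 2.1.0, cutadapt 1.17 and FastQC 0.11.7, and the methods of the paper name GRCz11 and Ballgown. The notes name GRCh37, but the gene IDs are those of zebrafish. The deposited values are FPKM made by the authors for 19071 genes per library; 4 tables state the unit and 2 leave it blank. Strand setting and gene filter are not given in the sources used here. At most 2 genes had FPKM above 0 and under 0.02 in both libraries of any pair, too few to recover read numbers.

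log2(FPKM + 1) of 18432 genes (mean FPKM 0.5 or more) was fitted with limma 3.58.1 in R 4.3.3 (eBayes with trend, no covariate, tests in both directions, Benjamini-Hochberg adjustment over all tested genes). All 9 genes passed the filter. Ratios were compared as differences of log2(FPKM + 1) by exact permutation, and figures drawn in Python 3.11.15 with matplotlib 3.10.9. The code was tested on simulated data. No source used here says if the pools were separate clutches, so a p-value reflects only the spread among these libraries.

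The 9 genes and the lists were chosen with earlier results of these data known. Named were all 9 genes, p2ry11, called genes of the 3 pathway lists up to 6 by smallest p, the highest and lowest value of each marker list and the 5 profiles nearest to sepp1b. SELENOI, prdx4, prdx6, sod3b and the genes stated as added were named after their values were seen. So were cubn and the markers named only for a lost call. The comparisons by span and with the neighbors of sepp1b also came after values were seen. For these comparisons a RefSeq table of GRCz12tu gave order and span only. Of the listed names 130 matched by name, 7 through a gene ID table and 14 not at all.

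Alternatives were pseudocounts of 0.1 and 0.5, no filter or a mean FPKM of at least 1, quantile normalization, median-of-ratios scaling, TPM, a replicate block, the call criteria of the study and leaving out each library.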

Additional observations from a re-analysis of the deposited data

How the results depend on the processing

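The direction of gpx1a and gpx1b held under all alternatives run. Their calls held under all 8 changes of processing and were lost without WT sibling replicate 1 or any 1 of the mutant libraries. With the replicate block the adjusted p of gpx1b from limma was 0.0491, close to the threshold. Depth is unknown, so no limit from counting can be given. Of all tested genes, 1517 were higher and 733 lower. The higher calls were 989 after quantile normalization, 668 with median-of-ratios scaling, 672 with a replicate block, 2766 by the criteria of the study and 114 to 3747 on leaving out 1 library. The lower calls were 1301 after quantile normalization, 404 with the block and 71 to 1488 on leaving out 1 library. The share of higher calls was 67.4%, and 43.2% after quantile normalization, 38.9% with median-of-ratios scaling and 77.1% in TPM.

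The number of the 8 genes called lower was 0 to 2 on leaving out 1 library. For other selenoproteins, higher calls were 3 by the criteria of the study and 0 to 3 on leaving out 1 library, and lower calls 0 to 5. For selenocysteine genes, higher calls were 1 after median-of-ratios scaling, 1 with a pseudocount of 0.1, 0 with the replicate block and 0 to 4 on leaving out 1 library. For peroxide and glutathione enzymes, higher calls were 1 with the block and 0 to 5 on leaving out 1 library, and lower calls 8 after quantile normalization, 2 with the block and 0 to 9 on leaving out 1 library. The named genes of the pathway lists not called with the block were selk, trnau1apb, scly, nfe2l2b, ggt1b, prdx2, prdx3 and txn2. The yolk syncytial layer markers apobb.1 and apoa1b were not called with the block either, nor was apobb.1 after median-of-ratios scaling. Of the other markers, laptm5, coro1a, c3a.1, hbbe2, slc12a3 and cryaa were not called with the block. coro1a was also lost in TPM and with a pseudocount of 0.1, and c3a.1, cryaa and elavl3 after median-of-ratios scaling. hbbe2 kept its call in 3 of the 8 changes of processing and slc12a3 in 4. The value of sepp1b was -2.53 with a pseudocount of 0.1, and -2.37 to -2.20 on leaving out 1 library.

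Signs turned for sepp1a (0.022) and gpx4b (0.025) after quantile normalization, for gpx7 (0.037) and gpx8 (0.065) after rescaling to TPM, and without WT sibling replicate 3 for gpx7 (-0.12 to 0.015 on leaving out each library) and gpx8 (-0.12 to 0.037). The difference in the log2 ratio of gpx1a to gpx1b was 0.091 and 0.023 with pseudocounts of 0.1 and 0.5, and -0.11 to 0.0058 on leaving out 1 library. That of gpx4a to gpx4b was -0.51 to -0.081. The causes were not tested. Whether the replicate numbers pair the libraries cannot be told from 3 libraries per group. After removal of group means, the correlations of same-numbered libraries were 0.016, 0.072 and 0.14. Those of the other pairs ranged from -0.13 to 0.11, and not every library correlated best with its own number.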
